A study of Mus musculus with 2 samples.

Results

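The core enzymes of glycolysis were followed here through 10 genes, Hk2, Gpi1, Pfkl, Aldoa, Tpi1, Gapdh, Pgk1, Pgam1, Pkm and Ldha. Members were the protein-coding transcripts of these genes in the GENCODE M21 mouse annotation, taken by gene symbol. Of 48 such annotated transcripts, 31 had a value, among 49490 protein-coding transcripts with a value in the table. The cells were wild-type DTCM23/49 XY mouse embryonic stem cells, feeder-depleted and kept on gelatin in medium with serum and leukemia inhibitory factor. They received 4-thiouridine (4sU), a uridine analogue that is built into new RNA, at 200 µM for 10 min. RNA that had taken up 4sU was biotinylated and pulled down as the labeled pool, and the supernatant was kept as the unlabeled pool. Each pool was measured in 1 library of biological replicate 1, and the labels call the unlabeled library preexisting RNA in its description and total RNA in its characteristics. With 1 library per pool no difference below has a replicate check, and other replicates were not analysed here.

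Glycolysis turns glucose into pyruvate in the cytosol. An upper stage spends ATP to phosphorylate and split the sugar, and a lower stage recovers ATP and NADH. Lactate dehydrogenase then reduces pyruvate to lactate and regenerates the NAD+ that the lower stage needs, and pluripotent stem cells are known for a high flux through this route.

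The table gives each transcript a level for its exons and, where it has introns, a level for its introns in each library. These levels are relative abundances per length, called TPM by the authors, but a column adds up to 10.0 times what TPM values would, so a level below is in the deposited unit and not in TPM. The table holds no read counts, so the depth of the libraries is unknown and levels carry no counting error. A log2 ratio of labeled over unlabeled was centred by subtracting the median of all coding transcripts with a mean exon level above 1, which was -0.38 for exons, or the median of -0.40 for gene sums with a mean above 10. A transcript or gene was called higher or lower when it lay at least 1 log2 unit from that median. In bulk RNA, fewer cells expressing a gene and less RNA per cell cannot be told apart.

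The labeled cell type was checked against marker genes. Exon sums of the 10 pluripotent cell markers were 11495 in labeled and 15746 in unlabeled RNA, all 10 passed the minimum, and the most abundant was Tdgf1 at 4574 and 6580.4. Fibroblast markers, which feeder cells would carry, summed to 8.72 and 20.9 over 7 genes, of which Thy1 alone passed the minimum and was the most abundant, and Col3a1, Lum and Postn were listed at 0 in both libraries. Among 13 early lineage markers, Pax6 and Otx2 passed, and the list summed to 702 and 822, led by Otx2 at 613 and 724. Gata6, Sox17 and Foxa2 were listed at 0 in both libraries.

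Summed over coding transcripts, the 10 genes differed far more from each other in level than between the pools. Gapdh was the most abundant and Pfkl the least, and the order below Gapdh by mean level was Ldha, Aldoa, Pkm, Pgam1, Pgk1, Gpi1, Hk2 and Tpi1. With no replicates, the neighbours in that order cannot be set against a spread. On the centred log2 scale the sums lay between -0.48 for Hk2 and 0.57 for Pfkl, with a median of 0.29. Without centring the sums of Gpi1, Aldoa, Pkm and Ldha turned negative, to -0.12, -0.39, -0.09 and -0.01, and with every biotype summed those of Gpi1 and Aldoa did, to -0.06 and -0.38. None of the 10 was called lower, against 11.3% of 10336 genes, and none was called higher, against 18.0% of those genes. With so few genes these shares do not set the list apart.

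**Figure D1:**
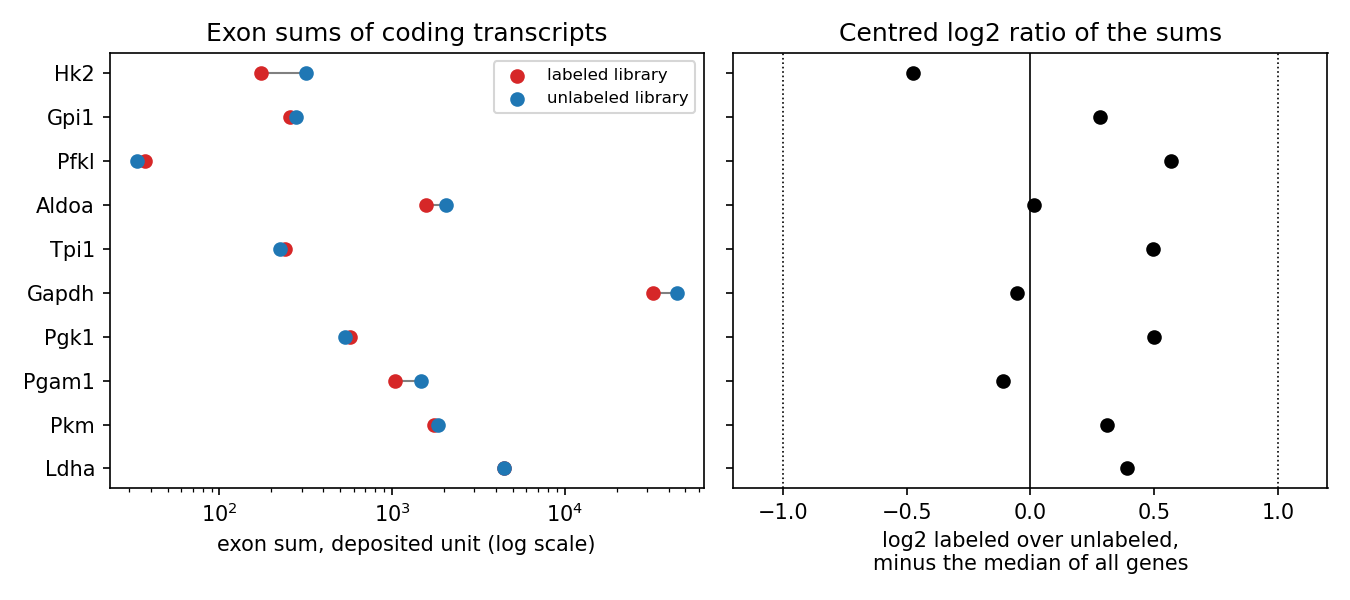
Exon sums of coding transcripts in the labeled (red) and unlabeled (blue) library on a log axis (left), and the log2 ratio of the sums minus the median of all genes (right), for the 10 genes in pathway order. Dotted lines mark 1 log2 unit from the median, and the points lie between -0.48 and 0.57.

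Hk2, at chr6:82725025-82774454 on the minus strand, encodes hexokinase 2, which phosphorylates glucose on entry and so holds it in the cell. Its exon sum was 173 in labeled and 318 in unlabeled RNA, the lowest centred log2 ratio of the 10 genes at -0.48. The leading transcript, the coding transcript with the largest mean exon level, was Hk2-201, with exon levels of 107 and 249 and a centred log2 ratio of -0.85. The coding transcripts of this gene diverged. Hk2-204 read 18.4 in labeled and 64.1 in unlabeled exons, a centred log2 ratio of -1.42, and was the only member transcript called lower. The short Hk2-203, with 2 exons and 505 exon bases, read 48.0 and 4.47, a centred log2 ratio of 3.80 and the highest of the members. Hk2-203 made up 27.8% of the labeled and 1.41% of the unlabeled exon sum of the gene. Its exon levels were near its own intron levels of 54.2 in labeled and 6.01 in unlabeled RNA. They were also near the intron levels of Hk2-201, 44.3 and 6.06. The part of unspliced RNA in the exon levels of Hk2-203 was not tested.

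Gpi1, at chr7:34201330-34230336 on the minus strand, encodes glucose-6-phosphate isomerase, which makes fructose 6-phosphate. Gpi1-201 was its only coding transcript with a value, at 255 in labeled and 277 in unlabeled exons. The centred log2 ratio of the gene sum was 0.28. Pfkl, at chr10:77986947-78010083 on the minus strand, encodes the liver-type subunit of phosphofructokinase, the enzyme of the committed step. Its sum of 37.2 in labeled and 33.1 in unlabeled RNA was the smallest of the 10 genes, with a centred log2 ratio of 0.57. Pfkl-201 carried most of it, at 31.3 and 32.0. Pfkp, another phosphofructokinase gene outside the 10, had larger sums of 738 in labeled and 940 in unlabeled RNA. Pfkl-202, a transcript with 5 exons that lies at the start of the gene, read 5.87 and 1.1 and was called higher at 2.79. Its unlabeled level is close to the minimum of 1 on the mean that was used as a filter, and it left the set when that minimum was raised to 10. The exon levels of Pfkl-202 were near the intron levels of Pfkl-201, 6.17 in labeled and 1.66 in unlabeled RNA. The part of unspliced RNA in them was not tested.

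Aldoa, at chr7:126795234-126800751 on the minus strand, encodes aldolase A, which splits fructose 1,6-bisphosphate into triose phosphates. Its exon sum was 1570.4 in labeled and 2056 in unlabeled RNA, a centred log2 ratio of 0.01. No transcript dominated this gene. Aldoa-201 read 503 and 679, Aldoa-202 read 449 and 548, and Aldoa-203 read 399.5 and 462. They are hard to tell apart by sequence, as Aldoa-201 has 85 exon bases that no other listed Aldoa transcript covers, Aldoa-203 has 89 and Aldoa-202 has 0. Aldoa-210 held 10.5% of the labeled and 13.4% of the unlabeled sum. The remaining Aldoa-204 and Aldoa-207 read between 21.6 and 63.0 over both libraries. Tpi1, at chr6:124810586-124814296 on the minus strand, encodes triosephosphate isomerase, which interconverts the products of aldolase. Its sum was 239 and 224, a centred log2 ratio of 0.49. Tpi1-205 read 165 in labeled and 123 in unlabeled exons, and Tpi1-203 read 74.0 and 102, so the former leaned to the labeled pool and the latter to the unlabeled one. The centred log2 ratios were 0.81 and -0.08, neither past the call.

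Gapdh, at chr6:125161715-125166467 on the minus strand, encodes glyceraldehyde-3-phosphate dehydrogenase, which opens the lower stage and makes NADH. Its exon sum was 32509 in labeled and 44584 in unlabeled RNA, rank 4 and rank 3 of the 10336 genes. The centred log2 ratio was -0.05. Coding transcripts shared this level rather evenly. Gapdh-212 read 9279 and 14051, Gapdh-203 read 8434 and 11924, Gapdh-201 read 7188 and 8886, and Gapdh-202 read 7186 and 8880.5. Gapdh-201 and Gapdh-202 differ by 1 exon base in length, 1272 against 1273, and their levels were almost equal. Across the table, 46.2% of 2464 isoform pairs that shared over 95% of exon bases had unlabeled levels within 1.1-fold, against 8.14% of 99144 pairs that shared under 50%. Whether reads were counted for several isoforms was not tested, so sums over isoforms of a gene are to be read with that limit. The short Gapdh-207 and Gapdh-209 held 0.663% and 0.632% of the labeled sum.

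Pgk1, at chrX:106187100-106203699 on the plus strand, encodes phosphoglycerate kinase 1, the first ATP-making enzyme of the pathway. Its only coding transcript, Pgk1-201, read 569.8 in labeled and 532 in unlabeled exons. The centred log2 ratio of the gene sum was 0.50. Pgam1, at chr19:41911923-41918660 on the plus strand, encodes phosphoglycerate mutase 1, which shifts the phosphate group within phosphoglycerate. Pgam1-201 was also the only coding transcript of its gene, at 1036 and 1476, with a centred log2 ratio of the gene sum of -0.11. Pgk1 was thus slightly higher in the labeled column as deposited, and Pgam1 lower, with neither near the call.

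Pkm, at chr9:59656368-59679375 on the plus strand, encodes the muscle-type pyruvate kinase, which makes pyruvate and ATP. Its exon sum was 1741.5 in labeled and 1856 in unlabeled RNA, a centred log2 ratio of 0.31. The gene is known for a pair of mutually exclusive exons, of which the upstream gives the M1 enzyme of muscle and brain and the downstream the M2 enzyme of embryonic and proliferating cells. In the annotation Pkm-201 carries the downstream exon and Pkm-202 the upstream exon. Pkm-201, the M2 form, read 1029.5 in labeled and 1184 in unlabeled exons, and Pkm-202, the M1 form, read 712 and 672. The M2 form held 59.1% of the labeled and 63.8% of the unlabeled sum. The transcripts share 1874 exon bases, and only 558 bases of Pkm-201 and 167 of Pkm-202 can tell them apart. How well the quantification split them was not tested. Both exons have 167 bases and are identical at 103 positions, or 61.7%. They are shown because they define the M1 and M2 forms, with capitals at the 64 positions that differ. They were read from the GENCODE M21 transcript sequences on GRCm38, plus strand, at chr9:59675568-59675734 for Pkm-201 and chr9:59675029-59675195 for Pkm-202.
Pkm-201: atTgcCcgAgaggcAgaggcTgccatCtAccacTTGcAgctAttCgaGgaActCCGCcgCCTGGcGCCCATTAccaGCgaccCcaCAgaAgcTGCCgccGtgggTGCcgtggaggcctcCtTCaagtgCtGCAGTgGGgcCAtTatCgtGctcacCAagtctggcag
Pkm-202: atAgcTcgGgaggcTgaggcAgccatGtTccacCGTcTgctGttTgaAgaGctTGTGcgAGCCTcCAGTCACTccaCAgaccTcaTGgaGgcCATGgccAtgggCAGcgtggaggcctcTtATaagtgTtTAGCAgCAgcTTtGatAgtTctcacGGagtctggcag

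Ldha, at chr7:46841475-46855627 on the plus strand, encodes the A subunit of lactate dehydrogenase. Its exon sum was 4432 in labeled and 4471 in unlabeled RNA, a centred log2 ratio of 0.39. Ldha-201 read 2076 and 2081, and Ldha-202, which starts upstream of it, read 1773 and 1551. These led the gene, at 46.8% and 40.0% of its labeled sum. The other 5 coding transcripts each held between 0.832% and 4.28% of the labeled sum, with exon levels from 36.9 to 275 over both libraries.

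Over single transcripts, 31 of 31 members passed the exon filter. Of these, 1 was called lower in labeled exons, against 14.6% of 33401 coding transcripts, and 2 were called higher, against 21.3%. The median centred log2 ratio of the members was -0.05, where centring sets the median of all coding transcripts to 0. Its sign turned with the setting, to 0.37 when centred on transcripts with a mean exon level above 100, to 0.10 with a mean exon level above 10 and to 0.14 with 1 transcript per gene. Without centring, 3 were called lower and 2 higher, and centred on transcripts with a mean exon level above 100, 0 were called lower and 3 higher. No share over all coding transcripts is given for these other centrings, so their counts describe the members only. Transcripts of a gene share exons and are not independent. The leading transcripts held between 186 uridines in Gapdh-212 and 1338 in Hk2-201, the positions at which 4sU can be built in, and the part of this in the ratios was not tested.

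Intron levels could be compared for 29 of the 31 members, since the introns of Tpi1-203 and Tpi1-205 were listed at 0 in unlabeled RNA. In labeled RNA those introns read 4.2 and 2.84. The median subtracted from the intron log2 ratio was 1.99, so intron RNA of most coding transcripts was higher in the labeled column as deposited. Relative to it, 2 of the 29 members were called lower, against 10.9% of 31386 coding transcripts, and 6 were called higher, against 9.27%. Without centring these counts were 0 and 27. The subtracted median of 1.99 is itself past the call of 1 log2 unit, so most coding transcripts would also be called higher uncentred. Their exact share is not given, and the 27 does not set the members apart. The introns called lower were those of Aldoa-201 at -1.05 and Aldoa-207 at -1.15. Called higher were the introns of Pgam1-201 at 1.42, of Hk2-203 at 1.18, and of Ldha-203, Ldha-205, Ldha-206 and Ldha-207, which lay between 1.18 and 1.46. Those Ldha transcripts overlap, so their introns are in part the same sequence.

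The intron to exon ratio within a library needs no scaling between libraries, and it is the quantity on which the study's model rests. Members had a median ratio of 0.182 in labeled RNA, where all coding transcripts had 0.570 and those with a mean exon level above 100 had 0.231. In unlabeled RNA the median was 0.0172, against 0.111 for all coding transcripts and 0.0307 for those above 100. Both medians of the members were thus below those of all coding transcripts, and nearer to those of well-expressed ones. The leading transcripts had still lower medians of 0.0577 and 0.0112 over 9 genes, without Tpi1. The 29 members had a median of 3753 intron bases per transcript, against 19554.5 for all coding transcripts. The leading transcripts of the 9 genes had a median of 14775 intron bases, nearer to the 18337.5 of coding transcripts with a mean exon level above 100. Among the 5041 coding transcripts with under 5000 intron bases the median labeled ratio was 0.349.

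The ratios of leading transcripts differed widely along the pathway. Tpi1-205, with a labeled ratio of 0.0172 and an unlabeled intron level listed at 0, is left out of the order that follows. Hk2-201 had the highest labeled ratio at 0.416, with 0.0243 in unlabeled RNA. Pfkl-201 had 0.197 and 0.0519, Pkm-201 had 0.187 and 0.0617, and Gpi1-201 had 0.123 and 0.0367. Pgk1-201 was in between at 0.0577 and 0.0112. Among these 9 genes, the lowest labeled ratios belonged to Ldha-201 at 0.0227, Pgam1-201 at 0.0209, Gapdh-212 at 0.0161 and Aldoa-201 at 0.0123. In unlabeled RNA these genes had 0.00400, 0.00137, 0.00289 and 0.00473, so the lowest unlabeled ratio of the 9 was that of Pgam1-201. Aldoa-201 and Gapdh-212 lay at the 0.341 and 0.494 percentile of labeled ratios over all coding transcripts, and Pgam1-201 lay at the 0.217 percentile of unlabeled ratios.

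**Figure D2:**
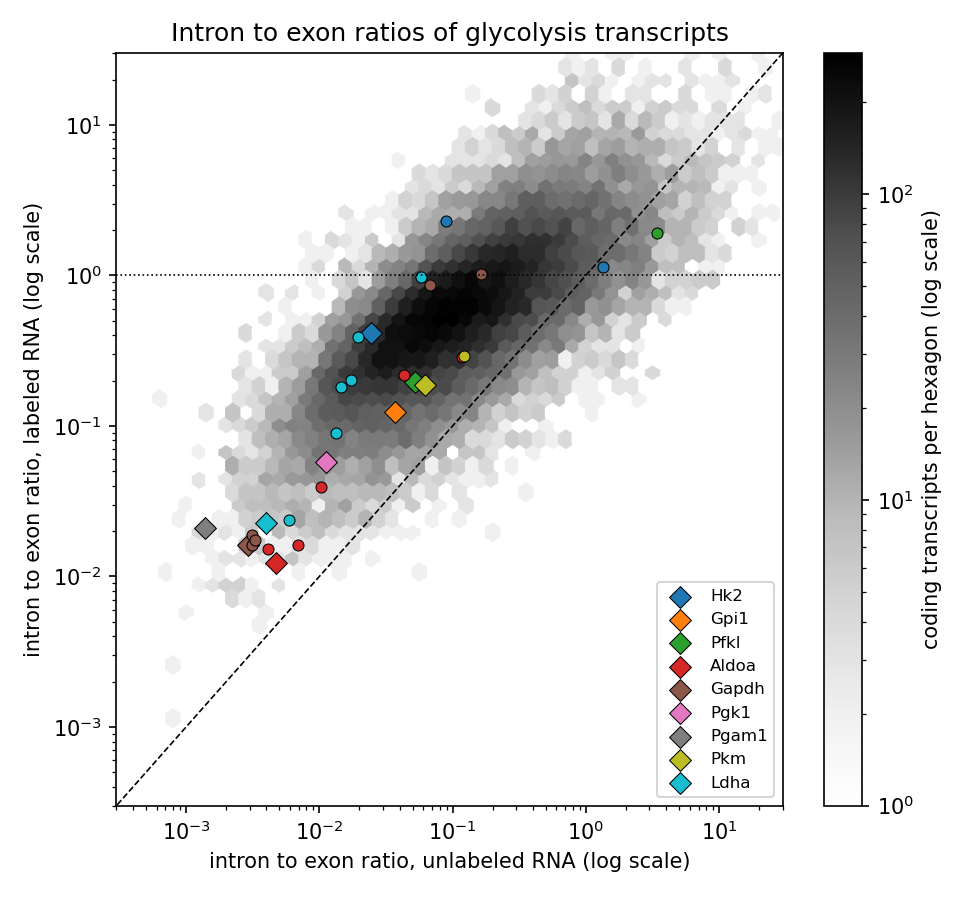
Intron to exon ratio in unlabeled (x) against labeled RNA (y), both on log axes, with grey hexagons for coding transcripts, diamonds for leading transcripts and circles for other member transcripts, coloured by gene. The dashed line marks equal ratios and the dotted line a labeled ratio of 1, which 4 of the 29 members reached.

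The model admits a transcript when its labeled ratio is under 1 and above its unlabeled ratio. This held for 25 of 29 members, against 66.7% of 31386 coding transcripts. The labeled ratio was 1 or more in 4 members, against 28.2%, and none of these led its gene. They were Hk2-203 at 1.13, Hk2-204 at 2.31, Pfkl-202 at 1.90 and Gapdh-209 at 1.03. Hk2-203 and Pfkl-202 also had higher ratios in unlabeled than in labeled RNA, at 1.34 and 3.41. Introns of member transcripts often contain exons of other isoforms or genes. This was so for 100.0% of the intron bases of Gapdh-212 and 2.84% of those of Pgk1-201, so an intron level need not be that of unspliced RNA, and the part of this in the ratios was not tested.

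Rates were computed from the pair of ratios with the study's equations, as a description. A degradation half-life followed from an exact root where the equation had one, and otherwise from the closest point on its curve. The root is unique where 2 of the 29 members lay, Gapdh-207 and Ldha-207, against 7053 of 31386 coding transcripts. Of the 25 admitted members, 21 had no root, and the fitted ratios then lay between 0.769 and 3.76 natural log units from the observed ones, a distance that limits what these half-lives mean. The median half-life of the 25 was 103.7 min, against 19.0 min over 20920 admitted coding transcripts, of which 11971 had no root. This median rests on the setting, since with both variables of the distance fitted the 21 members without a root had half-lives between 2.24 and 9.05 min. All coding transcripts were not refitted that way, so the comparison holds for the main setting only. No median half-life was computed for coding transcripts with a mean exon level above 100, to whose intron to exon ratios the members were nearer. Genes with many isoforms also weigh more in the median of the 25.

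Among leading transcripts the longest half-life was that of Aldoa-201 at 301.6 min, and this was also the fit with the largest distance, 3.76. Gapdh-212 followed at 207 min, Ldha-201 at 154 min and Pgam1-201 at 143 min, with distances of 3.31, 2.98 and 2.82. The shorter half-lives were 70.8 min for Pgk1-201, 39.7 min for Gpi1-201, 27.2 min for Pkm-201 and 24.6 min for Pfkl-201. Hk2-201 had the shortest, 12.8 min under the main setting. It was the only leading transcript with a root, but it had 2, and the other gave 1.34 min. The root with the larger ratio of processing to degradation rate was kept here, whereas the study chose by likeness to the rates of other transcripts. These values hung on the setting. With both variables of the distance fitted, the half-lives of the 8 transcripts without a root fell to between 3.06 and 9.05 min. These fits lay at distances of 0.755 to 3.12, against 1.08 to 3.76 under the main setting. Freeing both variables can only shorten the distance or leave it equal, so the shorter distances do not rank the settings. When the unlabeled library was treated as total RNA, as its characteristics have it, Aldoa-201 came to 14.3 min, Gapdh-212 to 34.9 min and Hk2-201 to 129 min. After subtraction of leakage Hk2-201 came to 80.5 min, and Pfkl-201, at 21.1 min, was then the shortest among leading transcripts. The order of the genes was therefore not kept. Isoforms of a gene also differed, from 17.8 to 301.6 min in Aldoa and from 10.8 to 3075 min in Ldha, where the longest was that of Ldha-207 with a labeled ratio of 0.983. The 10.8 min was that of Ldha-205, which had 2 roots, and the other gave 1.83 min. Ldha-205 came to 46.5 min after subtraction of leakage and to 147 min with the unlabeled library treated as total RNA. After subtraction of leakage the labeled ratio of Ldha-207 and of Gapdh-207 was 1.27, so the 2 members with a unique root were no longer admitted and had no half-life.

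**Figure D3:**
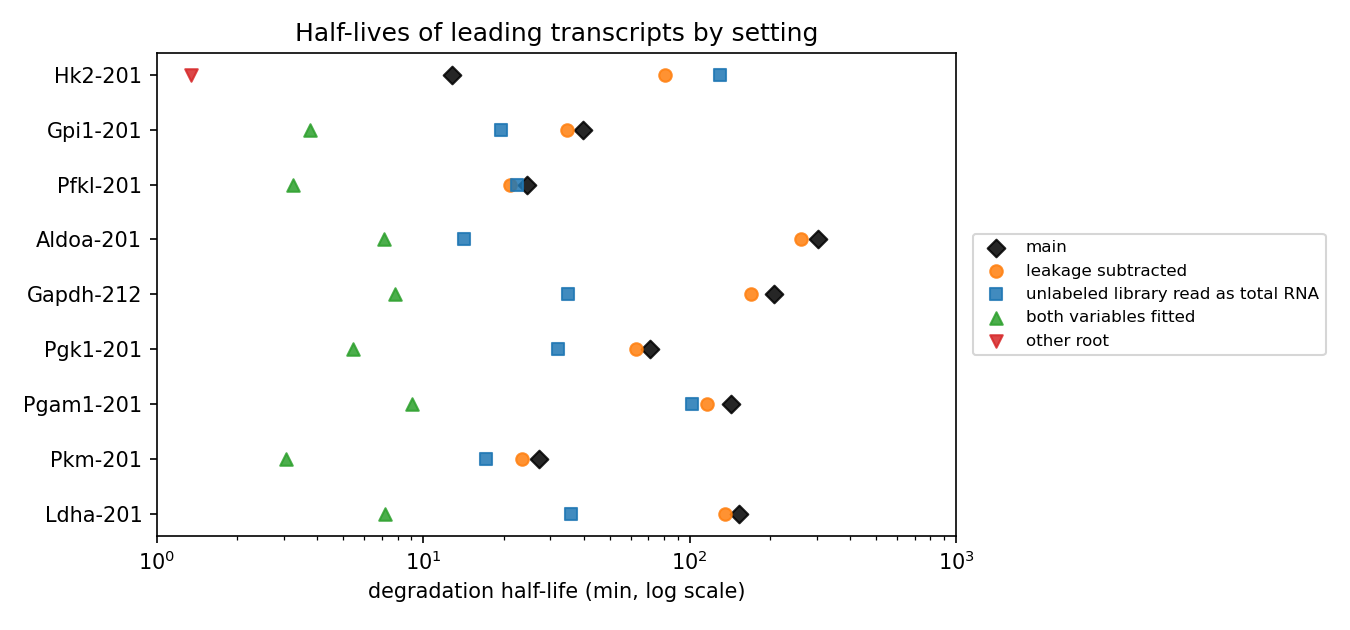
Degradation half-life in min on a log axis for the leading transcripts of 9 genes under the main setting (black diamonds) and the alternatives named in the legend. Aldoa-201 runs from 301.6 min to 7.09 min, and treating the unlabeled library as total RNA moves Hk2-201 to 129 min.

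Several members have annotated copies elsewhere in the genome, here taken by gene name, and their levels are uncertain where reads fit both. Gapdh-ps15, on chromosome Y, read 9119 in labeled and 13219 in unlabeled RNA, in the range of the Gapdh coding transcripts. Pgk1-rs7 read 637.5 and 707, above Pgk1-201 in both libraries. Pgam1-ps1 read 258 and 647, and Pgam1-ps2 read 292 and 923.5, a centred log2 ratio of -1.28. Aldoart1, a retrogene copy of aldolase A, read 305 and 367, and Ldha-ps read 234 and 210.5. How reads were divided between a gene and its copies was not tested. Genes on the other strand overlap Hk2, Gpi1, Aldoa, Tpi1 and Gapdh, and whether strand was used in counting is not given in the sources used here. The largest labeled sum among them was that of Iffo1, at 133 in labeled and 18.9 in unlabeled RNA, which shares 68 bases with Gapdh. The largest unlabeled sum was that of Spsb2, at 19.4 and 32.8, which shares 34 bases with Tpi1.

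Other genes of glucose metabolism were taken from lists, by gene sums. Of 69 genes, 44 passed the minimum, 5 were called lower, 7 higher and 32 neither, against the 11.3% and 18.0% of all genes given above. Among other isozymes and steps, 2 of 13 were called higher and 0 lower. Eno1, the main enolase, read 3071 in labeled and 5032 in unlabeled RNA, Ldhb, the B subunit of lactate dehydrogenase, read 2264 and 1648, and Eno1b read 1455 and 2225. The pair called higher were Eno2 at 17.1 and 4.06 and Ldhc at 31.0 and 16.9, isozymes of neurons and testis. Transporters had 2 of 5 called lower and 0 higher. Slc2a3, a glucose transporter, read 267 and 949 at a centred log2 ratio of -1.43, and Slc16a1, a lactate transporter, read 79.8 and 281 at -1.42. Bsg, Slc2a1 and Slc2a3 had the highest levels of that list, with Bsg at 1351 and 1716 and Slc2a1 at 404 and 785.

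Among regulators and bypass enzymes, 1 of 8 was called lower and 1 higher. Over all genes 11.3% were called lower and 18.0% higher, and with so few genes the counts of these lists do not set them apart. Arnt, the partner of hypoxia-inducible factor, read 311 and 956 at -1.22, and Pck2, the mitochondrial PEP carboxykinase, read 48.3 and 28.7 at 1.15. Hif1a read 281 and 545, and Pfkfb3, which makes the activator of phosphofructokinase, read 97.6 and 148. For pyruvate entry to the mitochondrion, 1 of 12 was called lower and 2 higher. Pdk3, an inhibitory kinase of pyruvate dehydrogenase, read 26.0 and 83.9 at -1.29, Mpc1, a subunit of the pyruvate carrier, read 219 and 123.5 at 1.23, and Pdk4 read 23.3 and 12.3 at 1.32. Pdhb at 381 and 617, Dld at 191 and 431 and Dlat at 134 and 280.2 had the largest sums. In the pentose phosphate pathway, 1 of 6 was called lower and 2 higher. Pgd read 97.2 and 268 at -1.06, Taldo1 read 90.0 and 32.2 at 1.89, and Pgls read 24.7 and 2.55 at 3.68. Rpe at 197 and 221 and G6pdx at 118 and 253 led this list with Pgd.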

How the data were processed

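The authors deposited exon and intron values as a length-normalized signal, called TPM, for 1 labeled and 1 unlabeled library. Their reads were aligned with STAR 2.5.0 to exonic and intronic sequences of mm10 (GRCm38) and quantified with RSEM, per the submitters' processing notes. Biotypes and coordinates came from GENCODE M21, where the study used another Ensembl release. Transcripts entered with a mean exon level above 1, and with intron levels above 0 for ratios, and genes with a mean sum above 10. Leakage was set to 0.139 of the unlabeled level, the 1st percentile of labeled over unlabeled exon levels. Where 2 roots existed the one with the larger ratio of processing to degradation rate was kept, which departs from the study's choice. The rate solver was tested on simulated data. With 1 library per group no test was made, and depth is unknown. The 10 members and the lists were chosen with earlier results of these data known. All member genes were named, with transcripts of at least 10% of the sum. Of each pathway list, the 3 genes with the largest means and every called gene were named, and Pfkp was named beside Pfkl. Alternatives were other minimums, a pseudocount of 0.1, leakage, other centring, 1 transcript per gene and every biotype. Scripts ran under Python 3.11.15 with scipy 1.17.1, pandas 2.3.3, numpy 2.4.6 and, for figures, matplotlib 3.10.9.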

Additional observations from a re-analysis of the deposited data

How the results depend on the processing

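No paired analysis was possible because each group had 1 library and no test was made. With no replicate spread, a count or median was taken to have moved when it changed by over 1.5-fold, for the log2 median on the unlogged scale. A count that changed by exactly 1.5-fold was taken as not moved. Of 71 comparisons of 9 results with an alternative, 53 had not moved by this rule and 18 had. With 1 transcript per gene, which leaves 10 members, 0 were lower and 0 higher in labeled exons, 1 lower and 1 higher in labeled introns, 0 had a labeled intron to exon ratio of 1 or more and 9 had one under 1 and above the unlabeled ratio, and the median ratios were 0.0577 in labeled and 0.0112 in unlabeled RNA. With every biotype, 55 members passed, 7 were lower and 6 higher in labeled exons, 4 were lower in labeled introns, and 38 had a labeled ratio under 1 and above the unlabeled one. Without centring, 3 were lower in labeled exons, and 0 were lower and 27 higher in labeled introns. Centred on transcripts with a mean exon level above 100, 0 were lower in labeled exons. After subtraction of leakage 3 were lower in labeled exons, and with a mean exon level above 10, 1 was higher. No share over all features is given at these settings, so these counts describe the members only. Apart from the changed member sets, the cause was not tested. The labeled to unlabeled ratios of the 10 gene sums, on the unlogged scale, moved by less than 1.5-fold under the 4 alternatives run, but the signs of their log2 values were not kept, since without centring Gpi1, Aldoa, Pkm and Ldha turned negative, and with every biotype Gpi1 and Aldoa did. The median exon log2 ratio of members turned from -0.05 to 0.37 centred on transcripts above 100, to 0.10 with the minimum of 10 and to 0.14 with 1 transcript per gene. Half-lives moved by more in 8 of 8 transcripts with both variables fitted, in 7 of 9 with the unlabeled library treated as total RNA and in 1 of 9 after leakage, Hk2-201, which came to 80.5 min. Depth limits what low intron levels can show, and it is unknown here.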

Other observations

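Transcripts of the 10 genes that are not annotated as protein coding were numerous, at 25 with a value beside the 31 coding ones, and some reached high levels. Gapdh-206, annotated as a retained intron, had the highest exon level of any transcript of these genes, 15623 in labeled and 18516 in unlabeled RNA, and 0 exon bases of its own. Pgk1-203, annotated for nonsense-mediated decay, read 709.7 and 779, above the coding Pgk1-201 in both libraries. Several short Gapdh transcripts were split between the pools. Gapdh-205 read 219 in labeled and 47.0 in unlabeled exons and Gapdh-211 read 60.8 and 13.2, at centred log2 ratios of 2.60 and 2.59, while Gapdh-204, Gapdh-208 and Gapdh-210 lay between -0.89 and -0.95.

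Hk2-202, a processed transcript near the end of the gene, had an intron level of 305 in labeled and 1103 in unlabeled RNA, above its exon levels of 272 and 217. All of its intron bases, 100.0%, lie in exons of other transcripts, and the part of this in its intron level was not tested. Pfkl-203 and Pfkl-204, both annotated as retained introns, went opposite ways, with 30.4 and 5.09 for the former and 9.11 and 33.6 for the latter. These transcripts were chosen after their values were seen.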
